A study of Mus musculus with 8 samples.

Results

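The 10 genes described here belong to the TNF receptor superfamily and were followed by RNA sequencing in mouse CD8 T cells that carried a vector for the nuclear protein TOX, or did not. The set was Tnfrsf4 (OX40), Tnfrsf9 (CD137), Tnfrsf18 (GITR), Cd27, Tnfrsf8 (CD30), Tnfrsf25 (DR3), Tnfrsf1a (TNFR1), Tnfrsf1b (TNFR2), Fas and Tnfrsf10b (the mouse TRAIL receptor), chosen by gene symbol. These are 10 of the 31815 genes in the deposited count table, and 9 of the 10 had enough counts to be tested. The cells were naive CD8 splenocytes of OT-I mice, labelled OTI (C57BL/6-Tg(TcraTcrb)1100Mjb/J), whose transgenic T cell receptor sees a peptide of ovalbumin. They were cultured with the peptide for 3 days, received a vector 24 h after the culture began, and were sorted on day 5. All groups therefore had been activated through the transgenic receptor. The vector encoded full-length TOX (TOXFL) or TOXdeltaN, each followed by GFP behind an internal ribosome entry site. The 4 groups were TOXFL-positive cells, TOXFL-negative cells, TOXdeltaN-positive cells and TOXdeltaN-negative cells, with 2 libraries each. Positive cells were the brightest 20% of the GFP-positive cells, and negative cells had no GFP. Positive and negative cells thus differ in TOX protein, in vector and in GFP sort at once, and cells with GFP alone were not analysed here. Separate mice or cultures are not named for the 2 libraries of any group, so a p-value covers no more than the spread among the sequenced libraries, possibly a technical one.

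Receptors of this family sit in the cell membrane and bind trimeric ligands of the TNF superfamily through cysteine-rich domains. OX40, CD137, GITR, CD27, CD30 and TNFR2 recruit TRAF adaptor proteins, which pass the signal to the NF-kappaB kinases, and in CD8 T cells they support survival and expansion after antigen. TNFR1, DR3, Fas and the TRAIL receptor carry a death domain in the cytoplasm, through which caspases can be engaged, although TNFR1 and DR3 also signal through NF-kappaB. CD27 is present on naive T cells, whereas OX40 and CD137 appear after stimulation of the T cell receptor. TOX is an HMG-box protein known for its part in T cell exhaustion, a state in which inhibitory and costimulatory receptors of the cell surface are altered.

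Of the 10 genes, 6 lie on chromosome 4 in GRCm38, by the GENCODE M21 annotation. Tnfrsf4 (ENSMUSG00000029075.6, chr4:156013843-156016612, plus strand) and Tnfrsf18 (ENSMUSG00000041954.18, chr4:156026164-156028895, plus strand) are neighbours. The gap between them is 9551 bases, with no protein-coding gene in it. Tnfrsf9 (ENSMUSG00000028965.13, chr4:150914562-150946102, plus strand) lies apart from them. Tnfrsf1b (chr4:145213463-145246870) and Tnfrsf8 (chr4:145267137-145315164), both on the minus strand, are 20266 bases apart, and Tnfrsf25 (chr4:152115934-152120119, plus strand) is the sixth. Cd27 (chr6:125232622-125237010, minus strand) and Tnfrsf1a (chr6:125349362-125362484, plus strand) share chromosome 6. Fas lies at chr19:34290666-34327772 and Tnfrsf10b at chr14:69767472-69784411, both on the plus strand.

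The 300 bases around the start sites of Tnfrsf4, Tnfrsf18 and Tnfrsf9 are shown because these 3 genes moved together across the libraries, as described further on. They are from RefSeq (GRCm38.p6), and each runs from 250 bases before to 50 bases after the start, with 9 of the 10 genes matched in all. Tnfrsf9 has 2 RefSeq start sites, which lie 5593 and 13437 bases inside the GENCODE gene start, that of Tnfrsf18 lies 158 bases inside it, and that of Tnfrsf4 lies before it. Capitals mark matches to the NF-kappaB consensus, to the AP-1 motif TGANTCA or to the NFAT core GGAAAA, on either strand.
Tnfrsf4 (chr4:156013445-156013744, plus strand): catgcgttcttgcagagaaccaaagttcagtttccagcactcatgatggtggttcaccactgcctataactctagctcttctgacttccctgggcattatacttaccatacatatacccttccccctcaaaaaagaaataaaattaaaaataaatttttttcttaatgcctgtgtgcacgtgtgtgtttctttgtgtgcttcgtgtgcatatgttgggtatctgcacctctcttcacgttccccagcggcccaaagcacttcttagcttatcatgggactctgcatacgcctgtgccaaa
Tnfrsf18 (chr4:156026072-156026371, plus strand): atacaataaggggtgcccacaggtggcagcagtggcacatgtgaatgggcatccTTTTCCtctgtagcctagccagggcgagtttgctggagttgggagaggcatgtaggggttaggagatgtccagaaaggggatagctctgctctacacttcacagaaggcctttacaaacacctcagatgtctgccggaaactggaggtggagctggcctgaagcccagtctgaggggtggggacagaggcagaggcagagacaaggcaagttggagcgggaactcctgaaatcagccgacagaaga
Tnfrsf9 upstream start (chr4:150919905-150920204, plus strand): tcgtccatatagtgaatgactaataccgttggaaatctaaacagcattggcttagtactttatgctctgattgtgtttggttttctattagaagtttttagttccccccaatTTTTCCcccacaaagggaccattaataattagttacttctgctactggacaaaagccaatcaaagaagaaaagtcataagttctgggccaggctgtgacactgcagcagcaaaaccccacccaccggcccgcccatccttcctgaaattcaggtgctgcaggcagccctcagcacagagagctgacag
Tnfrsf9 downstream start (chr4:150927749-150928048, plus strand): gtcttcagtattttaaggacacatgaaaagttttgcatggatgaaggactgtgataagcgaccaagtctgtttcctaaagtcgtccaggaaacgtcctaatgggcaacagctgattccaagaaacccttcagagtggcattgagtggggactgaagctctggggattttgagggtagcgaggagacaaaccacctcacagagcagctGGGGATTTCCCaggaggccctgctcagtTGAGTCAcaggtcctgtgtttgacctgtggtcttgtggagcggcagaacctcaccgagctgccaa

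The downstream Tnfrsf9 window held 2 NF-kappaB consensus matches that overlap, joined in the capitals GGGGATTTCCC. It also held an AP-1 match, TGAGTCA. The upstream Tnfrsf9 window and the Tnfrsf18 window each held 1 NFAT match on the strand opposite to the one printed, and the Tnfrsf4 window held no match. Of 32851 promoter windows of this length, 4.51% held the NF-kappaB consensus, 7.81% the AP-1 motif and 23.4% the NFAT core. Among the other receptors, the Tnfrsf8 window had an NF-kappaB and an AP-1 match, the Fas window an AP-1 and an NFAT match, and 1 window each of Tnfrsf25 and Cd27 an NFAT match. These are matches of letters and were not tested for binding.

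The libraries held between 25059112 and 31240067 counts each. As a check of the GFP labels, Tox was looked at before the receptors. Its counts hold the native gene and the vector together, and this check does not tell TOXFL from TOXdeltaN. It stood at 105 and 126 CPM (counts scaled for library depth and by TMM) in TOXFL-positive cells, against 25.1 and 34.4 CPM in TOXFL-negative cells. It stood at 107 and 82.9 CPM in TOXdeltaN-positive cells, against 21.8 and 32.2 CPM in TOXdeltaN-negative cells. The log2 change was 1.96 with TOXFL (edgeR quasi-likelihood test, adjusted p = 0.0297) and 1.82 with TOXdeltaN (adjusted p = 0.0419). The 7 CD8 T cell markers summed to between 3290 and 3852 CPM in every library, in keeping with the labelled cell type. All 6 markers of B cells were in the table and summed to between 14 and 16.4 CPM in positive libraries, against 16.4 to 17.5 CPM in negative libraries. Nearly all of this was Cd79b, at 344 to 492 counts, while Cd79a had 5 to 14 counts and the defining marker Pax5 had 0. The 8 myeloid and dendritic markers summed to between 2.67 and 3.80 CPM in positive libraries, against 2.05 to 3.83 CPM in negative libraries, with Cd68 at 31 to 96 counts, Itgax at 8 to 48, and Adgre1 and Clec9a at 0. Of 5 NK and gamma-delta T cell markers, 3 were in the table, the NK cell markers Klrb1c, Ncr1 and Klra8. They summed to between 0.345 and 0.879 CPM in positive libraries, against 0.740 to 1.85 CPM in negative libraries, mostly Klrb1c at 11 to 52 counts. The gamma-delta T cell markers Tcrg-C1 and Trdc were not found by symbol, so those cells were not checked. The globin gene Hbb-bs had 2 to 40 counts. The part of these markers in the results was not tested. The libraries do not mark strand, so reads of overlapping genes on opposite strands cannot be told apart. This touches Tnfrsf18, of whose exon bases 27.2% overlap exons of the antisense gene Gm16008, itself estimated at no more than 2.2 CPM. That estimate comes from the same unstranded reads, so it does not by itself limit the part of Gm16008 in the Tnfrsf18 counts. The genes on the other strand of Cd27 and Tnfrsf9, Vamp1 and Camta1, share no exon bases with them.

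Per kilobase of exon, GITR transcripts were the most abundant of the set and CD30 transcripts were close to absent. The mean over the 8 libraries was 211 CPM per kb for Tnfrsf18, 109 for Tnfrsf9 and 108 for Cd27. It was 48.8 CPM per kb for Tnfrsf4 and 48.4 for Tnfrsf1b, then 15.8 for Fas and 12.2 for Tnfrsf1a. Tnfrsf25 averaged 4.55 CPM per kb and Tnfrsf10b 0.521. Neighbours in this order had separate ranges over the libraries, with 2 exceptions. Tnfrsf9 (70.6 to 161 CPM per kb) spanned the whole range of Cd27 (98.4 to 120), and Tnfrsf4 (28.6 to 83.2) spanned that of Tnfrsf1b (41.1 to 51.5). Tnfrsf4 and Tnfrsf9 were thus also the tested receptors that varied most: the highest library stood 2.91 times above the lowest for Tnfrsf4 and 2.29 times for Tnfrsf9, against 1.22 to 1.60 times for the other 7 tested genes.

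**Figure D1:**
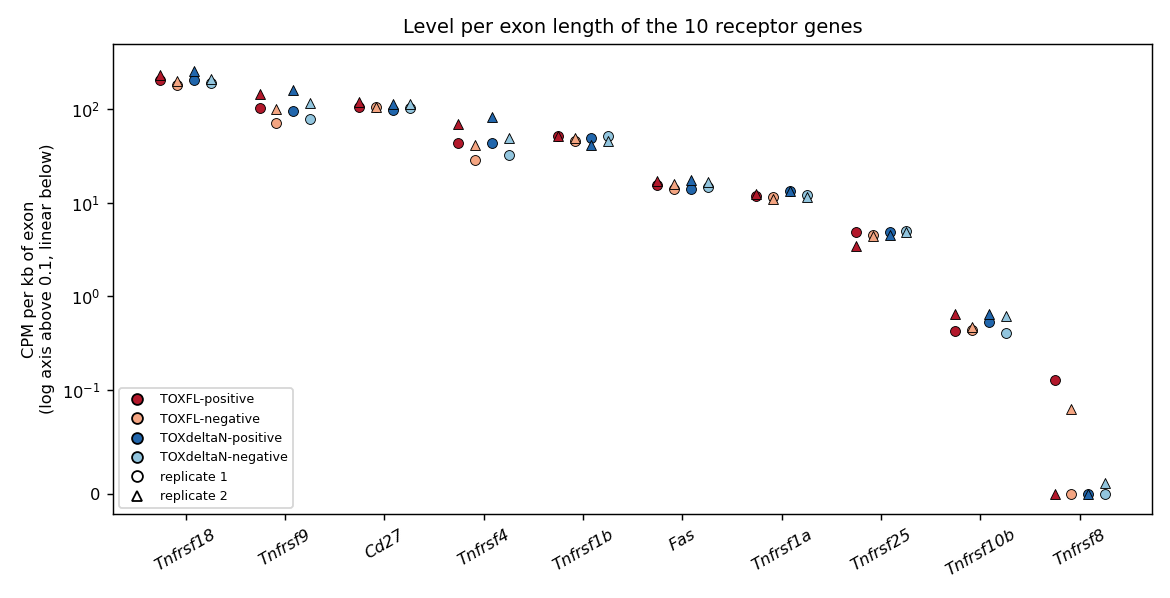
Level of each of the 10 receptor genes in CPM per kilobase of exon (vertical axis, logarithmic above 0.1), with 1 point per library, coloured by group and shaped by replicate number. Tnfrsf18 averaged 211 CPM per kb at the left and Tnfrsf10b 0.521, while Tnfrsf8 had a count in only 3 of the 8 libraries.

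OX40, CD137 and GITR, costimulatory receptors induced by antigen, had higher transcript levels in cells with the vector than in same-numbered cells without it, for both constructs. Tnfrsf4 averaged 76.7 ± 25.3 CPM in TOXFL-positive cells and 47.8 ± 12.3 CPM in TOXFL-negative cells, and 86.4 ± 38.4 CPM in TOXdeltaN-positive cells and 55.7 ± 16.5 CPM in TOXdeltaN-negative cells (SD, n = 2 each). The SDs are wide because the replicate numbers differ. Tnfrsf4 stood at 58.9 and 94.6 CPM in TOXFL-positive cells (replicates 1 and 2), against 39.1 and 56.5 CPM in TOXFL-negative cells. It stood at 59.3 and 114 CPM in TOXdeltaN-positive cells, against 44.0 and 67.4 CPM in TOXdeltaN-negative cells. The TOXFL groups did not overlap, but only by the small step between 58.9 and 56.5 CPM, and the TOXdeltaN groups did overlap, because replicate 2 was the higher library in each group. Within a replicate number, the positive library stood 1.51 and 1.67 times above the negative one with TOXFL, and 1.35 and 1.69 times with TOXdeltaN.

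Tnfrsf9, whose product CD137 sustains the survival of activated CD8 T cells, had the same arrangement at a higher level. It stood at 284 and 394 CPM in TOXFL-positive cells, against 192 and 277 CPM in TOXFL-negative cells. It stood at 262 and 439 CPM in TOXdeltaN-positive cells, against 212 and 316 CPM in TOXdeltaN-negative cells. Positive libraries stood above their same-numbered negative library 1.48 and 1.42 times with TOXFL, and 1.23 and 1.39 times with TOXdeltaN, while the pooled TOXdeltaN groups overlapped.

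Tnfrsf18 differed less. It stood at 317 and 358 CPM in TOXFL-positive cells, against 279 and 305 CPM in TOXFL-negative cells. It stood at 312 and 391 CPM in TOXdeltaN-positive cells, against 291 and 321 CPM in TOXdeltaN-negative cells. The ratio of positive to same-numbered negative libraries lay between 1.07 and 1.22. Only 1 other receptor, Tnfrsf1a, was higher in the positive library of all 4 same-numbered pairs, so that 4 of the 9 tested receptors were, against 18.6% of all tested genes.

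**Figure D2:**
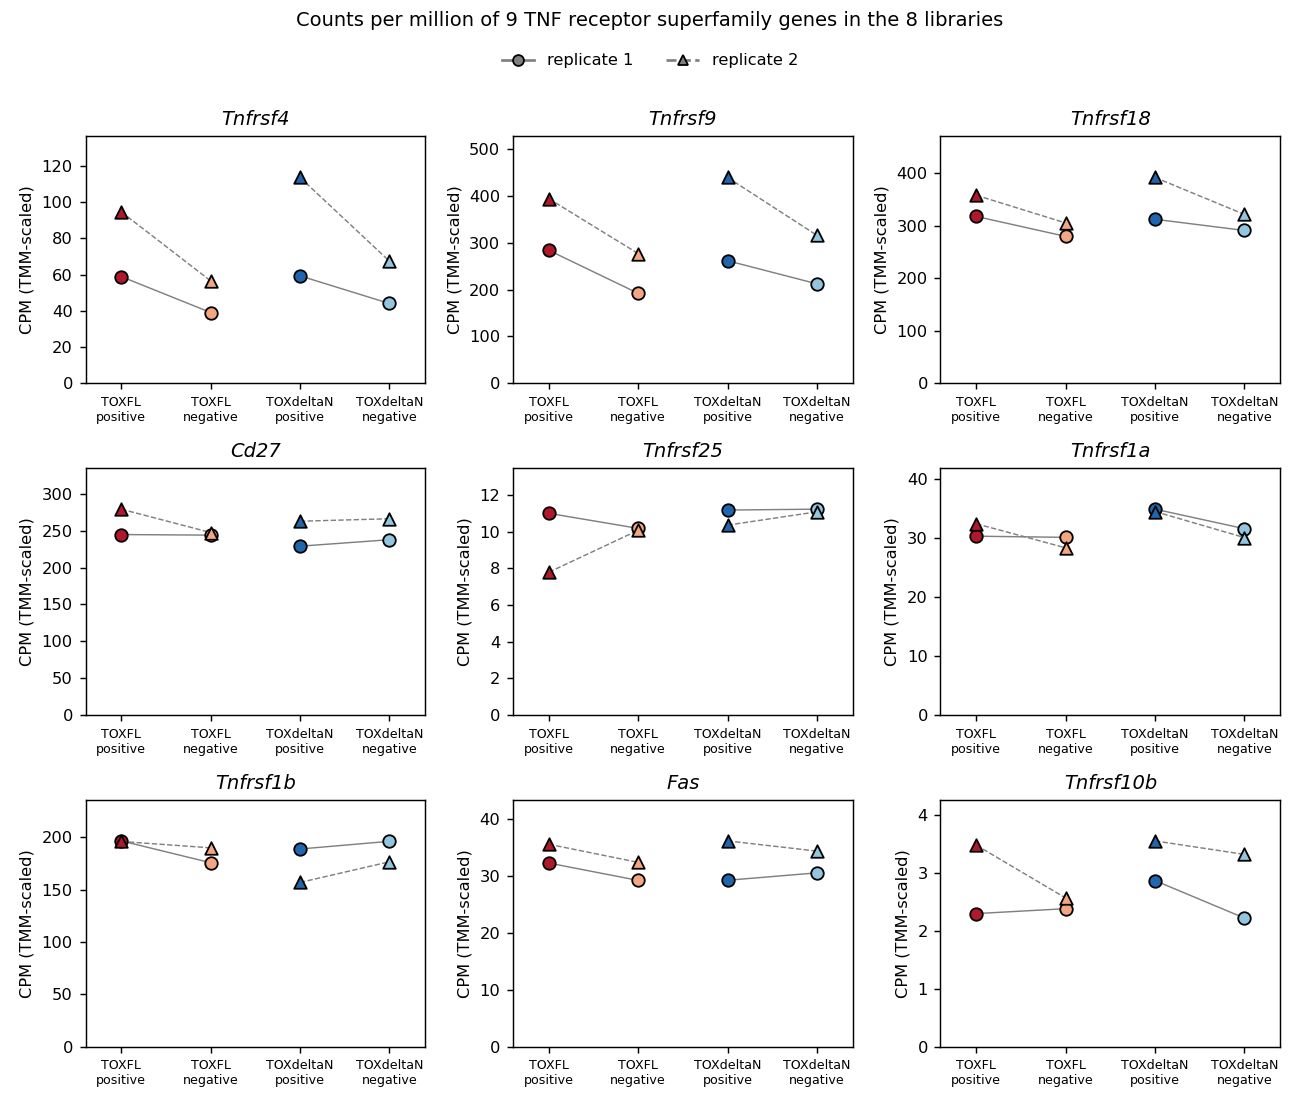
TMM-scaled CPM (vertical axis, from 0) of the 9 tested receptors in each of the 8 libraries, with lines joining positive and negative cells of the same construct and replicate number. Tnfrsf4, Tnfrsf9 and Tnfrsf18 slope down to the negative cells in all 4 pairs and sit higher in replicate 2, while Cd27 and Tnfrsf1b do not slope alike in the 4 pairs.

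In the edgeR quasi-likelihood fit on group means alone, no receptor passed an adjusted p of 0.05 in either construct comparison or in the mean of both. That fit called 0.045% of all tested genes with TOXFL, 0.03% with TOXdeltaN and 2.42% in the mean of both constructs. At an unadjusted p under 0.05 it held 0, 0 and 3 of the 9 receptors in those comparisons, against 1790, 1632 and 2920 of the 13329 tested genes. DESeq2 called 0 receptors in each, and 314, 121 and 1058 genes in all. The same-numbered libraries deviated together across genes, so the edgeR fit was repeated with the replicate number as a block, hereafter the blocked fit. It called 3.48%, 1.65% and 12.7% of genes, of which 1.51%, 0.773% and 6.04% of all genes were higher. The replicate number as a pairing is read from the data and is not in the labels.

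In the blocked fit, Tnfrsf4 and Tnfrsf9 rose with TOXFL, Tnfrsf4 rose with TOXdeltaN, and all 3 receptors rose in the mean of both constructs. The log2 change of Tnfrsf4 was 0.67 with TOXFL (SE 0.107, adjusted p = 0.0119, edgeR) and 0.60 with TOXdeltaN (SE 0.106, adjusted p = 0.0327), against 0.68 (adjusted p = 0.426) and 0.63 (adjusted p = 0.47) without the block. That of Tnfrsf9 was 0.54 with TOXFL (SE 0.0864, adjusted p = 0.0119), against 0.53 (adjusted p = 0.458) without the block. With TOXdeltaN, Tnfrsf9 had 0.39 (SE 0.0863, adjusted p = 0.0572), which missed the threshold. In the mean of both constructs the blocked values were 0.63 for Tnfrsf4 (SE 0.0755, adjusted p = 0.00142), 0.46 for Tnfrsf9 (SE 0.0611, adjusted p = 0.00205) and 0.20 for Tnfrsf18 (SE 0.0571, adjusted p = 0.046), and without the block 0.66, 0.47 and 0.20 (adjusted p = 0.155, 0.21 and 0.214). These 3 are 3 of the 9 tested receptors, against 6.04% of all tested genes called higher in that blocked comparison. The sizes hardly moved with the block, so the calls turn on how the spread between replicate numbers is treated.

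Without the filter on low counts, the fit without the block called Tnfrsf4 and Tnfrsf9 in all 3 comparisons (edgeR, adjusted p = 1.65e-10 and 7.43e-07 in the mean of both). That setting called 678, 516 and 1665 genes in all with TOXFL, with TOXdeltaN and in the mean of both. The log2 changes in the mean hardly moved, at 0.650 for Tnfrsf4 and 0.463 for Tnfrsf9, against 0.657 and 0.470 with the filter. These smaller p-values therefore do not come from larger changes. Single libraries also decided some of these calls and sizes. Without the block, the log2 change of Tnfrsf4 with TOXdeltaN was 0.089 without TOXdeltaN-positive replicate 2 and 1.02 without TOXdeltaN-positive replicate 1, and with TOXFL it was 0.30 without TOXFL-positive replicate 2 and 0.98 without TOXFL-positive replicate 1. Tnfrsf9 with TOXFL had 0.28 without TOXFL-positive replicate 2 and 0.82 without TOXFL-negative replicate 2, and with TOXdeltaN −0.014 without TOXdeltaN-positive replicate 2. With the block, these ranges were 0.43 to 0.75 for Tnfrsf4 with TOXdeltaN, 0.56 to 0.77 for Tnfrsf4 with TOXFL and 0.46 to 0.61 for Tnfrsf9 with TOXFL. In the blocked mean of both constructs, Tnfrsf4 and Tnfrsf9 passed in all 8 omissions of 1 library (edgeR, adjusted p up to 0.0271 and 0.0349). Tnfrsf18 passed there only without TOXdeltaN-positive replicate 1 (adjusted p = 0.00126) or replicate 2 (0.0281), and otherwise had an adjusted p between 0.0973 and 0.26. The TOXFL call of Tnfrsf4 was lost without any of the 4 TOXFL libraries (adjusted p between 0.0726 and 0.162). That of Tnfrsf9 was lost without any TOXFL library or either TOXdeltaN-negative library (0.0501 to 0.158). The TOXdeltaN call of Tnfrsf4 held only without TOXdeltaN-positive replicate 1 or 2 (0.000282 and 0.0429), and otherwise lay between 0.0504 and 0.509. Without the block, all 3 receptors passed in the mean of both constructs only when TOXdeltaN-positive replicate 1 was left out (adjusted p = 0.025, 0.0421 and 0.0245, log2 0.85, 0.63 and 0.28).

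**Figure D3:**
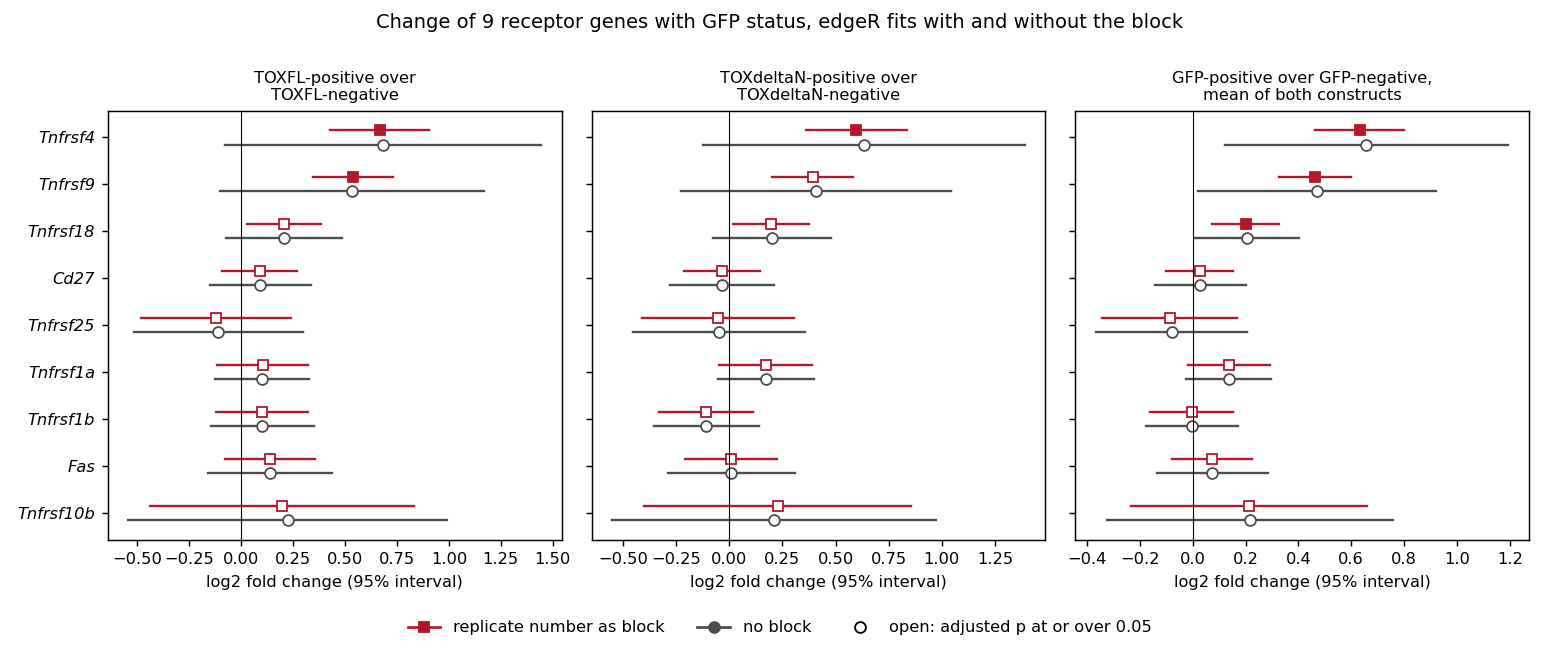
Log2 fold change with its 95% interval (horizontal axis) of the 9 tested receptors for each construct and for the mean of both, from the edgeR fit with the replicate block (red squares) and without it (grey circles); filled symbols passed an adjusted p of 0.05. The estimates nearly coincide, and the blocked intervals of Tnfrsf4 and Tnfrsf9 are several times shorter, at 0.46 to 0.80 against 0.12 to 1.19 for Tnfrsf4 in the mean of both.

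The remaining costimulatory receptors were not called. Cd27, which is already present before activation, stood at 245 and 279 CPM in TOXFL-positive cells, against 244 and 248 CPM in TOXFL-negative cells. It stood at 229 and 263 CPM in TOXdeltaN-positive cells, against 238 and 266 CPM in TOXdeltaN-negative cells. The mean of both constructs was a log2 of 0.03 with a 95% interval from −0.14 to 0.20, which leaves out the Tnfrsf9 estimate of 0.47 in that fit. The interval of Tnfrsf9 itself, from 0.02 to 0.92, overlaps that of Cd27, and the difference between these genes was not tested. Tnfrsf25, whose product DR3 binds TL1A, stood at 11.0 and 7.78 CPM in TOXFL-positive cells, against 10.2 and 10.1 CPM in TOXFL-negative cells. It stood at 11.2 and 10.4 CPM in TOXdeltaN-positive cells, against 11.2 and 11.1 CPM in TOXdeltaN-negative cells. The lowest of the 8 values was that of TOXFL-positive replicate 2, and the mean of both constructs was −0.08 (−0.37 to 0.21). Tnfrsf8 had 13 and 0 counts in TOXFL-positive cells, against 0 and 8 in TOXFL-negative cells, and 0 and 0 in TOXdeltaN-positive cells, against 0 and 1 in TOXdeltaN-negative cells. A count of 0 allows up to 3 counts, or 0.0941 to 0.12 CPM in these libraries, for counting error alone, and CD30 transcripts were not tested.

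The TNF receptors differed from each other in level more than with either construct. Tnfrsf1b encodes TNFR2, which binds TNF and lacks a death domain. It stood at 197 and 196 CPM in TOXFL-positive cells, against 176 and 190 CPM in TOXFL-negative cells. It stood at 189 and 157 CPM in TOXdeltaN-positive cells, against 196 and 177 CPM in TOXdeltaN-negative cells. The TOXFL groups did not overlap and the TOXdeltaN groups did, and the log2 changes had opposite signs, 0.10 (−0.14 to 0.35) and −0.11 (−0.36 to 0.14).

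Tnfrsf1a encodes TNFR1, the death domain receptor for TNF. It stood at 30.3 and 32.4 CPM in TOXFL-positive cells, against 30.1 and 28.3 CPM in TOXFL-negative cells. It stood at 34.9 and 34.5 CPM in TOXdeltaN-positive cells, against 31.6 and 30.1 CPM in TOXdeltaN-negative cells. Positive and negative groups did not overlap with either construct, but the mean of both was a log2 of 0.14 (−0.02 to 0.30) and did not pass (edgeR, adjusted p = 0.298, and 0.225 with the block). Counted over the set, 5 of the 9 tested receptors had positive libraries entirely above the negative ones with TOXFL, against 24.9% of all tested genes. With TOXdeltaN it was 1, Tnfrsf1a, against 21.1%, and over all 8 libraries 0, against 8.22%.

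The death receptors Fas and Tnfrsf10b were not called. Fas stood at 32.3 and 35.6 CPM in TOXFL-positive cells, against 29.2 and 32.4 CPM in TOXFL-negative cells. It stood at 29.3 and 36.2 CPM in TOXdeltaN-positive cells, against 30.6 and 34.4 CPM in TOXdeltaN-negative cells. The positive and negative groups overlapped with both constructs, and the mean of both was 0.07 on the log2 scale (−0.14 to 0.29). Tnfrsf10b had 64 to 111 counts per library. It stood at 2.30 and 3.48 CPM in TOXFL-positive cells, against 2.39 and 2.57 CPM in TOXFL-negative cells, and at 2.87 and 3.56 CPM in TOXdeltaN-positive cells, against 2.22 and 3.32 CPM in TOXdeltaN-negative cells. Its mean change of 0.22 had an interval from −0.32 to 0.76, which does not exclude a change as large as that of Tnfrsf4. Because these are bulk samples, fewer cells with a transcript and less transcript per cell cannot be told apart.

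The effects of the constructs were then compared with each other. No receptor differed between TOXFL and TOXdeltaN, at an unadjusted p under 0.05, in either edgeR fit, and 0% of all genes were called in either. DESeq2 called 0 of the receptors, and 7 genes in all. For Tnfrsf4 the TOXFL effect minus the TOXdeltaN effect was 0.05 on the log2 scale (95% interval −1.02 to 1.12), and 0.07 with the block (−0.27 to 0.40). For Tnfrsf9 it was 0.12 (−0.77 to 1.02), and 0.15 with the block (−0.13 to 0.42). For Tnfrsf18 it was 0.01 (−0.39 to 0.40), and for Tnfrsf1b 0.21 (−0.14 to 0.56). These intervals hold differences as large as the effects themselves without the block, so they do not show that the constructs act alike.

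TOXFL-positive and TOXdeltaN-positive cells set directly against each other gave no call among the receptors, with 0% of all genes called and 0.0075% in the blocked fit, at log2 values from −0.20 for Tnfrsf25 to 0.18 for Tnfrsf1b. Tnfrsf1b was the only receptor whose TOXFL-positive libraries lay entirely above the TOXdeltaN-positive ones, against 15.9% of all tested genes, and Tnfrsf1a the only one entirely below, against 16.1%. Among the negative cells, too, no receptor was called for TOXFL against TOXdeltaN cultures (0% of all genes), at log2 values from −0.22 for Tnfrsf4 to −0.03 for Tnfrsf1b. There Tnfrsf25 was the only receptor without overlap, lower in TOXFL-negative cells, against 16.6% of all tested genes. In neither comparison did a receptor reach an unadjusted p under 0.05 in either edgeR fit. DESeq2 called 0 receptors in both, with 19 genes in all for the positive cells and 8 for the negative cells.

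The receptors also differed with the replicate number, at a log2 of 0.69 for Tnfrsf4, 0.58 for Tnfrsf9 and 0.19 for Tnfrsf18 in the blocked fit. Replicate 2 stood above replicate 1 by 1.45 to 1.92 times for Tnfrsf4 in the 4 groups, by 1.39 to 1.68 times for Tnfrsf9 and by 1.09 to 1.25 times for Tnfrsf18. In 6 of the 9 tested receptors, these 3 with Cd27, Fas and Tnfrsf10b, replicate 2 was the higher library in all 4 groups, against 13% of all tested genes. Across the 8 libraries, log2 CPM of Tnfrsf4 correlated with that of Tnfrsf9 at r = 0.99, with that of Tnfrsf18 at r = 0.99, and Tnfrsf9 with Tnfrsf18 at r = 0.972. These values describe the 8 libraries, which share both the GFP sort and the replicate number, and they include the neighbouring genes Tnfrsf4 and Tnfrsf18 and the more distant Tnfrsf9 alike. Fas followed Tnfrsf9 at 0.917, while Tnfrsf25 ran against Cd27 at −0.693.

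Markers of CD4 and regulatory T cells, which can carry OX40 and GITR, were examined beside this. All 6 markers of that list had counts, and they summed to between 91.5 and 96.4 CPM in positive libraries, against 76.3 to 99.9 CPM in negative libraries. Nearly all of this was Ikzf2, at 31.4 to 68.1 CPM, and Ikzf4, at 25.8 to 44.3 CPM. Cd4, Foxp3, Zbtb7b and Cd40lg each stayed at or under 3.15 CPM, so the sum says little about them. In the blocked fit 0 of 6 were called with or against GFP, beside 12.7% of all tested genes in the mean of both constructs. Cd4 had 21 and 0 counts in TOXFL-positive cells, against 22 and 1 in TOXFL-negative cells, and 36 and 0 in TOXdeltaN-positive cells, against 35 and 0 in TOXdeltaN-negative cells. Foxp3 had 13 to 92 counts, and like Cd4 was lower in replicate 2 of every group. The part of CD4 and regulatory T cells in the receptor values was not tested. Cd8b1, a chain of the CD8 coreceptor, was the only called gene of the 7 CD8 T cell markers, at a log2 of −0.31 in the mean of both constructs with the block (adjusted p = 0.00611), and its part in the result was not tested.

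Among 9054 genes above 8 CPM, the genes most like each receptor over the 8 libraries were named by Pearson correlation of log2 CPM. For Tnfrsf4 these were Phb2 (r = 0.997), a mitochondrial prohibitin, and Msmo1 (0.992), an enzyme of cholesterol synthesis. For Tnfrsf9 they were Msmo1 (0.994) and the transcription factor gene Irf8 (0.993). For Tnfrsf18 they were Psmd6 (0.996), a proteasome subunit, and Cct7 (0.993), a chaperonin subunit. The closest matches of the other receptors lay between 0.93 for Tnfrsf1a with Lin37 and 0.982 for Tnfrsf25 with Tcf20.

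Among the ligands of these receptors, OX40 ligand was the only one called both with and without the block. Its gene Tnfsf4 stood at 9.58 and 16 CPM in TOXFL-positive cells, against 4.10 and 6.44 CPM in TOXFL-negative cells. It stood at 8.27 and 14.2 CPM in TOXdeltaN-positive cells, against 5.34 and 5.67 CPM in TOXdeltaN-negative cells. No positive library overlapped the negative ones of its own construct, and Tnfsf4 rose in the mean of both without the block (log2 1.15, SE 0.235, edgeR adjusted p = 0.0411) and with it (1.12, SE 0.138, adjusted p = 0.00163). With the block, 6.04% of all tested genes were called higher in that mean and 12.7% either way. Of the 9 ligand genes tested of 11, 3 were called higher and 1 lower there. Besides Tnfsf4, Fasl (Fas ligand, 0.43) and Lta (lymphotoxin alpha, 0.40) rose, and Tnfsf8, the ligand of CD30, fell by 0.31 to between 92.3 and 111 CPM in positive libraries, against 112 to 139 CPM in negative libraries. Tnfsf9, the ligand of CD137, was not called at 0.20 with the block (adjusted p = 0.414), and Tnfsf18, the ligand of GITR, had 0 counts in every library. The median log2 change of the ligands was 0.22, beside 0.14 for the 9 receptors and 0.00 for all tested genes.

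Of 12 other receptor genes of the superfamily tested of 18, 0 were called higher and 2 lower in the blocked mean of both constructs, at a median of −0.04. Of all 13329 tested genes, 6.04% were called higher there, 892 genes were called lower, and 12.7% were called either way. The counts of these 12 genes were not tested against those shares. Tnfrsf22 fell by 0.55 (adjusted p = 0.0175) and Tnfrsf26 by 0.32 (adjusted p = 0.00806), both mouse decoy or orphan receptors encoded beside each other on chromosome 7. Tnfrsf26 stood at 64.2 and 54.3 CPM in TOXFL-positive cells, against 80.1 and 67.1 CPM in TOXFL-negative cells, and at 62.2 and 52.6 CPM in TOXdeltaN-positive cells, against 77.6 and 66.3 CPM in TOXdeltaN-negative cells.

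Downstream of the receptors, genes were called in both directions, to be read against the 12.7% of all tested genes called in the blocked mean. Of 23 adaptor and kinase genes, 1 was called higher and 3 lower in the blocked mean, at a median of −0.09. The kinase gene Map3k7 rose by 0.20, and the kinase genes Map3k5, Map3k14 and Ikbkb fell by 0.38, 0.26 and 0.25. Traf1, the adaptor that binds CD137, was not called at −0.15 (edgeR adjusted p = 0.0967). Of 10 inhibitors and feedback genes, 1 was called, Otulin, a deubiquitinase, at 0.28. Of 12 NF-kappaB subunits and survival targets, 3 were called higher, at a median of −0.01, all of them BCL2 family genes and none a subunit. Bcl2l1 rose by 0.22, and Bcl2a1b and Bcl2a1d by 0.30 and 0.59, although Bcl2a1b and Bcl2a1d share reads with near-identical copies and are uncertain. Of 4 receptor shedding genes, 0 were called with or without the block, and the largest values were 0.91 for Rhbdf1 and −0.19 for Rhbdf2, genes of inactive rhomboid proteins that guide a sheddase. Rhbdf1 had group means of only 0.170 to 0.600 CPM, so its value rests on few counts.

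Genes of the death branch and targets of p53, among which Fas and Tnfrsf10b are often counted, were set beside the death receptors. In the blocked mean, 12.7% of all tested genes were called. Of 10 death effectors, 3 were called higher and 1 lower there, at a median of 0.01. Among them, Mlkl, the effector of necroptosis, rose by 0.38 and the Fas-associated factor gene Faf1 by 0.22, and Cflar, an inhibitor of caspase-8, fell by 0.23. Of 14 p53 targets, 8 were called higher and 1 lower with the block, and 3 higher and 1 lower without it, at a median of 0.36. The shares of all tested genes called either way were 12.7% with the block and 2.42% without it. Cdkn1a, the cell cycle inhibitor, rose by 1.27, Phlda3 by 0.97, Gtse1 by 0.52 and Sesn2 by 0.46 with the block, and Trp53inp1 fell by 0.35. Fas and Tnfrsf10b, at 0.07 and 0.21 with the block, were not called in either fit.

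A list of 12 genes of T cell activation was described beside the receptors. Only 1 of these 12, Cd44, an adhesion receptor of activated T cells, was called in the blocked mean, beside 12.7% of all tested genes. Cd44 rose by 0.33 (edgeR adjusted p = 0.00725). It stood at 73.0 and 82.2 CPM in TOXFL-positive cells, against 56.0 and 64.8 CPM in TOXFL-negative cells. It stood at 76.6 and 84.8 CPM in TOXdeltaN-positive cells, against 59.4 and 71.8 CPM in TOXdeltaN-negative cells. The median of the list was 0.04, and the other 11 genes were not called.

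**Figure D4:**
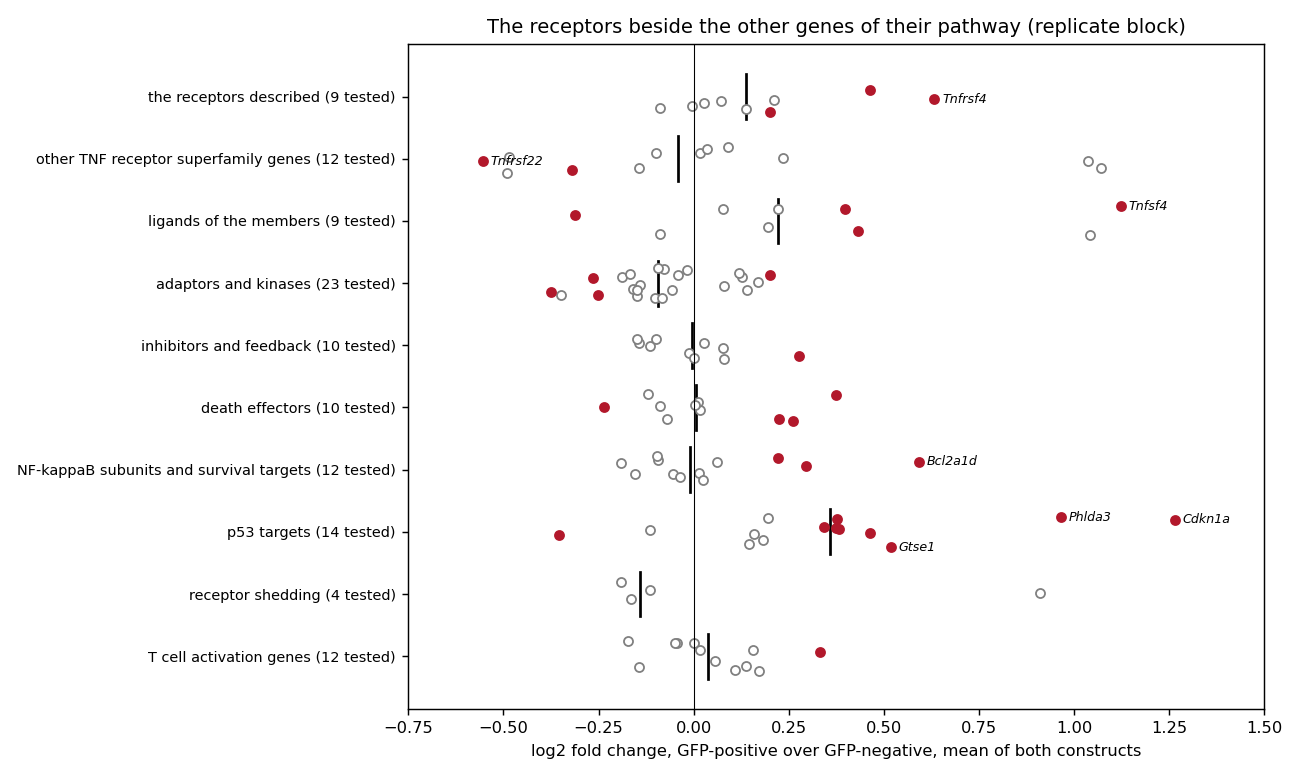
Log2 fold change of GFP-positive over GFP-negative cells in the mean of both constructs (horizontal axis, blocked edgeR fit) for the receptors and the other lists, with 1 point per gene, filled where the adjusted p was under 0.05, and a bar at the list's median. Tnfrsf4, Tnfrsf9 and Tnfrsf18 are the filled points of the receptors, Tnfsf4 at 1.12 leads the ligands, and the 8 higher p53 targets reach 1.27 for Cdkn1a.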

How the data were processed

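bcl2fastq 2.20, cutadapt, STAR 2.6.1, RSEM 1.2.28 and the build GRCm38 are named by the authors, per the submitters' processing notes. Per the labels' protocols, 8 ng of RNA went into SMART-Seq v4 and Nextera XT libraries, which do not mark strand. Each deposited value is an estimated count of a gene from RSEM, whole and not normalized; the annotation release is not given in the sources used here. The 92 spike-in rows were 0 throughout and left out. Gene positions and exon lengths are from GENCODE M21 (31173 of 31815 identifiers matched with version, and all 10 receptors).

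Tests used edgeR 4.0.16 in R 4.3.3: filterByExpr by group with a minimum count of 10 (13329 genes kept), TMM factors from 0.9894 to 1.0203, the quasi-likelihood F-test on 4 group means, and Benjamini-Hochberg adjustment over all tested genes. A gene is called at an adjusted p under 0.05, and rose or fell is written of called genes. The biological coefficient of variation was 0.1321, and 0.0958 with the replicate block. Replicates differed beyond counting error in every group (chi-square over its degrees of freedom 11.2 to 38.7), and intervals of fold changes are 95% intervals.

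Whether replicate numbers pair the libraries was judged from the correlation of same-numbered libraries' deviations from their group means. It was 0.164 to 0.2 over tested genes for all 6 pairs of groups, above the limit of 0.1, and 0.255 to 0.485 above 8 CPM. The pairing comes from the data, since no label explains the number.

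The receptors and gene lists were chosen with earlier results of these data known. Text names all 10 receptors and, per list, the called genes, at most 4 each way; 1 called gene is not reported here. Alternatives were DESeq2 1.42.0 as a test, its size factors, no filter, the block, only the compared groups, and omission of each library. The edgeR fit, with and without the block, was run on simulated data for TOXFL-positive against TOXFL-negative cells only. The other comparisons and statistics were not.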

Additional observations from a re-analysis of the deposited data

How the results depend on the processing

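With the replicate block, the receptors called were 2 with TOXFL, 1 with TOXdeltaN and 3 in the mean of both constructs, and the genes called were 464, 220 and 1697, against 0 receptors and 6, 4 and 323 genes without it. Without the filter on low counts, 2 receptors, Tnfrsf4 and Tnfrsf9, were called in each of these comparisons, with 678, 516 and 1665 genes called. DESeq2 called 0 receptors and 314, 121 and 1058 genes. A fit of the compared groups alone called 2 genes with TOXFL and 0 with TOXdeltaN. For the difference between the constructs, for the positive cells and for the negative cells, 45, 116 and 37 genes were called without the filter, 7, 19 and 8 by DESeq2, and 0, 1 and 0 with the block, and the groups alone gave 1 for the positive cells. The cause of these shifts was not tested. Leaving out 1 library at a time, with or without the block, gave 0 to 1772 genes and 0 to 3 receptors with TOXFL, 0 to 2650 genes and 0 to 3 receptors with TOXdeltaN, and 5 to 3681 genes and 0 to 3 receptors in the mean. It gave 0 to 449 genes for the difference, 0 to 1934 genes and 0 to 2 receptors for the positive cells, and 0 to 8 genes for the negative cells. Of 1116 alternative values of single receptors, 971 kept direction and side of the threshold, 47 passed it newly and 98 changed sign, of which 0 were called. The log2 values of receptors that changed sign spanned the following when 1 library was left out. For TOXFL-positive against TOXFL-negative cells, the ranges were Tnfrsf1b −0.022 to 0.23, Tnfrsf25 −0.38 to 0.12, Cd27 −0.0053 to 0.18 and Tnfrsf10b −0.11 to 0.49. For TOXdeltaN-positive against TOXdeltaN-negative cells, the ranges were Tnfrsf9 −0.014 to 0.73, Tnfrsf1b −0.25 to 0.018, Tnfrsf25 −0.15 to 0.041, Cd27 −0.14 to 0.058, Fas −0.15 to 0.15 and Tnfrsf10b −0.052 to 0.53. In the mean of both constructs, the ranges were Tnfrsf1b −0.074 to 0.060, Tnfrsf25 −0.22 to 0.033, Cd27 −0.023 to 0.075 and Fas −0.0059 to 0.15. For the difference between the constructs, the ranges were Tnfrsf4 −0.34 to 0.59, Tnfrsf9 −0.20 to 0.55, Tnfrsf18 −0.14 to 0.18, Tnfrsf1a −0.14 to 0.012, Tnfrsf25 −0.33 to 0.17, Fas −0.013 to 0.29 and Tnfrsf10b −0.31 to 0.28. Between TOXFL-positive and TOXdeltaN-positive cells, the ranges were Tnfrsf4 −0.56 to 0.37, Tnfrsf9 −0.37 to 0.37, Tnfrsf18 −0.21 to 0.11, Tnfrsf25 −0.47 to 0.032, Cd27 −0.0046 to 0.19, Fas −0.089 to 0.21 and Tnfrsf10b −0.48 to 0.12. Between TOXFL-negative and TOXdeltaN-negative cells, the ranges were Tnfrsf4 −0.51 to 0.12, Tnfrsf9 −0.46 to 0.14, Tnfrsf18 −0.14 to 0.0074, Tnfrsf1b −0.15 to 0.099, Cd27 −0.12 to 0.048, Fas −0.16 to 0.012 and Tnfrsf10b −0.42 to 0.16. The receptors called with the block also moved without changing sign: without the block, Tnfrsf4 spanned 0.30 to 0.98 with TOXFL, 0.089 to 1.02 with TOXdeltaN and 0.39 to 0.85 in the mean of both, Tnfrsf9 0.28 to 0.82 with TOXFL and 0.26 to 0.63 in the mean, and Tnfrsf18 0.12 to 0.29 with TOXFL, 0.028 to 0.35 with TOXdeltaN and 0.12 to 0.28 in the mean. Tnfrsf9 changed sign with TOXdeltaN only without TOXdeltaN-positive replicate 2. Fas had −0.00051 with TOXdeltaN without the filter, and Tnfrsf10b −0.030 for the difference with the replicate block. With 2 libraries a group, intervals without the block were wide, and Tnfrsf8 could not be tested.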
